A study of Mus musculus with 94 samples.

Results

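This account follows 10 genes through single mouse basophils: the AP-1 subunit genes Fos, Fosb, Jun, Junb and Jund, the early response genes Egr1 and Dusp1, and the ZFP36 family genes Zfp36, Zfp36l1 and Zfp36l2. They were taken by name from a table of 46078 mouse gene identifiers, and all 10 were found. The bone marrow donors were C57BL/6 females of unstated age, with no treatment named. The CD34+ group held 47 live cells sorted as lineage-negative, Sca1-negative, FcεRI-positive and CD34+, and the CD34- group held 47 cells with the same gate but no CD34. Each cell was lysed in a plate well with ERCC spike-in RNA, amplified from polyadenylated RNA and sequenced as 50 bp single-end reads.

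The design text names 3 mice, but no label ties a cell to a mouse. Each gate is therefore 1 sample, cells are not replicates, and no test was possible. Differences are described by size. Intervals on summed levels cover the counting of reads and those on shares the counting of cells, and neither covers differences between mice or tests the gates. Of the 94 cells, 92 were kept, 46 per gate, with 262944 to 938322 gene reads in CD34- and 374011 to 1154738 in CD34+ cells. Levels are reads per 1000000 gene reads (CPM). Folds are given as log2 of the CD34+ over the CD34- summed level, after adding 1 CPM to each.

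The sort label was checked against markers. Of 10 basophil markers, 7 (Mcpt8, Prss34, Cpa3, Fcer1a, Ms4a2, Cd200r3 and Gata2) had reads in every kept cell. Cd34 had a log2 fold of 5.65, with reads in 28 of 46 CD34+ and 4 of 46 CD34- cells. CD34- cell 10 went against its label, although it too held reads of those 7 basophil markers, so a read alone is a weak check. It held 12273 CPM of Cd74 and 966 CPM of Csf1r, genes of antigen-presenting and monocytic cells, where the highest other CD34- cell held 2.41 CPM and 147 CPM. Its Fcer1a stood at 7.61 CPM, where the lowest other cell had 223 CPM, and no read of Hdc or Cebpa was found in it. Its Mcpt8, Prss34 and Cpa3, at 45.6, 118 and 26.6 CPM, were low but within the range of the other CD34- cells. Results were therefore also computed without this cell, and folds also without CD34- cells 25 and 36, a pair chosen after the data were seen. Among the defining markers of other cell types, Ly6g, Ltf, Camp, Ncr1, Pf4 and Hba-a1 had no read in either gate. Nkg7, a cytotoxic granule gene, stood at 78.6 and 696 CPM in CD34- and CD34+ cells, and Ccr2, a chemokine receptor gene, at 493 and 40.5 CPM. The part of other cell types in the results below was not tested beyond leaving out cell 10. No marker values are given here for cells 25 and 36.

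As background, immediate-early genes are transcribed within minutes of a stimulus from factors the cell already holds. FOS and JUN proteins pair through leucine zippers to form AP-1, which in basophils and mast cells acts downstream of the IgE receptor and of growth factor receptors on cytokine genes. EGR1 is a zinc finger factor induced by the same kinases, and DUSP1 is a phosphatase that switches MAP kinases off. ZFP36, also called tristetraprolin, and its relatives ZFP36L1 and ZFP36L2 bind AU-rich elements in mRNAs and recruit the machinery that removes poly(A) tails, which shortens the life of many cytokine mRNAs and of immediate-early mRNAs themselves.

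Most of the set was lower in the CD34+ gate. Of the 10 genes, 7 were at least 2-fold lower (log2 fold of -1 or less), 0 were at least 2-fold higher, and Zfp36, Junb, Fosb, Jund, Jun, Dusp1 and Fos were lower in that order of size. Over the 12460 genes detected in 10 or more kept cells, 10.1% were at least 2-fold lower and 21.7% at least 2-fold higher. Without that filter 8.29% were at least 2-fold lower, with a minimum of 10 CPM in a gate 11.5%, and with TMM factors 14%. At 4-fold, 2 of the 10 genes (Zfp36 and Junb) were lower, against 1.77% of all genes, and 0 were higher, against 7.8%. The fold was below 0 for 8 of the 10 genes and for 41.1% of all genes. The median log2 fold was -1.44 over the 10 genes and 0.19 over all genes. The genes were chosen with earlier results of these data known, Zfp36 among them, so the count is a description.

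The count depended on the scaling. CD34+ cells gave more gene reads per ERCC read, with a median of 14.4 against 6.87. Divided by ERCC reads in place of gene reads, 2 of the 10 genes (Zfp36 and Junb) were at least 2-fold lower, against 2.25% of all genes, and 7 were lower at all. The median of all genes then moved to 1.04 and that of the set to -0.49. Whether a cell type holds less of an mRNA or the same amount in a larger pool of RNA cannot be told apart from CPM alone. Without CD34- cell 10, the same 7 genes stood at least 2-fold lower, with log2 folds from -5.20 to -1.25, and without cells 25 and 36 from -5.27 to -1.30.

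**Figure D1:**
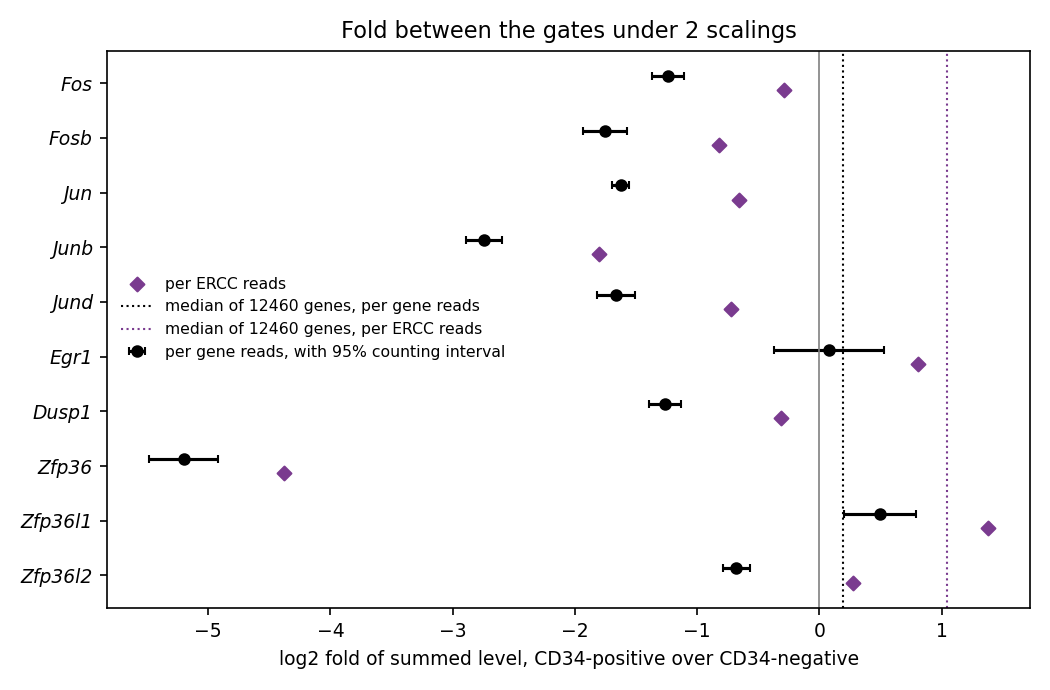
Log2 fold of the summed level, CD34+ over CD34-, for each of the 10 genes. Circles are per gene reads with the 95% counting interval, diamonds are per ERCC reads, and dotted lines give the medians of all 12460 genes under each scaling (0.19 and 1.04). Zfp36 lies farthest to the left under both scalings, at -5.20 and -4.38.

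Zfp36 differed most. In the 46 CD34- cells it ran from 0 to 1094 CPM with a median of 18.1 CPM, and in the 46 CD34+ cells from 0 to 45.6 CPM with a median of 0. The highest CD34+ cell, number 26, thus lay far under the upper quartile of the CD34- cells, at 189.9 CPM, although the gates overlapped at the low end. Summed over cells this came to 4307 and 76 reads, or 129 (125 to 133) and 2.53 CPM. Before 1 CPM was added, the summed level was 50.9-fold lower in the CD34+ gate, with a counting interval of 39.5 to 66.5. With 1 CPM added to each gate, the log2 fold was -5.20 (-5.48 to -4.92), a smaller difference.

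Zfp36 was also found in fewer of the CD34+ cells. After drawing 200000 gene reads from each cell, a Zfp36 read was found in 28 of 46 CD34- cells, or 60.9% (exact Clopper-Pearson 95% interval 45.4% to 74.9%), and in 7 of 46 CD34+ cells, or 15.2% (6.34% to 28.9%). With 10 or more reads required, the counts were 21 and 0 cells, and 0 of 46 allows a share of up to 6.52% by the rule of 3 counts over the total. Without drawing, 31 and 11 cells held a read. Where a read was found at the fixed depth, the median level was 153 CPM in CD34- and 14.9 CPM in CD34+ cells, so both the share of cells and the level in them were lower. No 1 cell carried the difference: the richest CD34- cell, number 21, held 21.5% of the reads of its gate, and the log2 fold was -4.89 without it. Over the 13 alternative settings it ran from -5.61 to -3.47.

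Among CD34- cells, Zfp36 tended to be lower where gene reads per ERCC read were higher (Spearman rho -0.38) and where the granule protease gene Prss34 was higher (rho -0.42), over 46 cells of 1 gate. In CD34+ cells, where few cells held Zfp36, these were 0.23 and 0.24. The part of RNA content in the difference between gates was not tested, beyond the ERCC-scaled fold of -4.38.

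Zfp36l2, which in mouse blood formation is known for its part in stem cell and lymphocyte mRNA decay, was the family member found most widely. It ran from 0 to 450.4 CPM with a median of 94.3 CPM in CD34- cells, and from 0 to 292 CPM with a median of 56.3 CPM in CD34+ cells. The 2 distributions overlapped over most of their range. A read was found at fixed depth in 39 of 46 CD34- cells (84.8%, 71.1% to 93.7%) and 42 of 46 CD34+ cells (91.3%, 79.2% to 97.6%). Its log2 fold of -0.68 (-0.79 to -0.57) did not pass 2-fold, and with ERCC scaling it changed sign to 0.27.

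Zfp36l1 was the sparsest family member in CD34- cells, with a median of 0 in both gates and highest cells of 144.5 and 68.3 CPM. The CD34- maximum was cell 10, which held 31.6% of the Zfp36l1 reads of its gate. Summed levels were 8.04 and 11.8 CPM, a log2 fold of 0.50 (0.20 to 0.79) that became 0.68 without cell 10, 0.06 with scran size factors, 1.38 with ERCC scaling and 1.17 in cells numbered 7 to 42. Cells with a read numbered 10 of 46 and 17 of 46, or 21.7% (10.9% to 36.4%) and 36.96% (23.2% to 52.5%). About 55.9% of its exonic bases also lie in the opposite-strand gene Gm26669 in GENCODE M21, so without the strand setting its counts are uncertain.

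The make-up of the family within a gate does not move with the scaling of that gate. Zfp36 gave 53.0% of family reads in CD34- and 3.16% in CD34+ cells (53.5% in the former without cell 10). The median per-cell share of Zfp36 was 27.6% and 0%. Zfp36l2 gave 43.7% and 82.2%, and Zfp36l1 3.31% and 14.7%. Counted by cell, Zfp36 held more than all other family reads together in 15 of 45 CD34- cells with any family read, and in 1 of 45 CD34+ cells. Zfp36l2 did so in 28 and in 40 cells. The summed family level was 243 CPM against 80.0 CPM.

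ZFP36 proteins bind the 9-base element UUAUUUAUU, and the element was searched for in the 3′ untranslated regions of the 10 genes, on the sense strand, taking the longest region per gene in GENCODE M21. It was present in 5 of the 10 genes, Fos, Dusp1, Zfp36, Zfp36l1 and Zfp36l2, against 7.59% of all 20988 genes with such a region. In the last 500 bases of regions at least that long it was present in 4 of 9, against 3.48% of 14191. The sites are shown, with the element in capitals, because they hold the letters that ZFP36 family proteins are known to bind, here in mRNAs that include their own. Dusp1 holds 2 copies, of which the one nearest the transcript end is shown.
Fos: uuuucaauUUAUUUAUUaagaugga
Dusp1: uuuuaccuUUAUUUAUUuuugugua
Zfp36: ugacgacuUUAUUUAUUguauuaag
Zfp36l1: cuguuggaUUAUUUAUUuuagaaau
Zfp36l2: uauuuaacUUAUUUAUUaucuugug
The 5 genes with a site had log2 folds from -5.20 to 0.50, so the element did not mark a single direction in the set. Over all genes tested, the 241 with the element in the last 500 bases had a median log2 fold of 0.26, and the 7042 without it 0.17. At least 2-fold lower were 14.1% of the former and 11.1% of the latter, and at least 2-fold higher 23.7% and 22.8%. A match is a description of the letters and not a measured binding site.

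Jun carried the most reads of the set. JUN is the AP-1 subunit with the strongest transactivating activity of its family. It ran from 0 to 5013 CPM with a median of 23.9 CPM in CD34- cells, and from 0 to 1482 CPM with a median of 1.55 CPM in CD34+ cells. Both gates held cells without a read and cells above 1000 CPM, so they overlapped at both ends, while 19 CD34- and 10 CD34+ cells exceeded 100 CPM. The summed level was 399 (393 to 406) against 129 CPM, a log2 fold of -1.62 (-1.69 to -1.55). A read was found at fixed depth in 27 and 21 of 46 cells, 58.7% (43.2% to 73.0%) and 45.7% (30.9% to 61.0%). CD34- cell 7 alone held 27.7% of the Jun reads of its gate, and the fold was -1.19 without it.

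Junb showed the largest fold after Zfp36. JUNB forms AP-1 dimers that often oppose those of JUN in growth control. CD34- cells ran from 0 to 1164 CPM with a median of 1.71 CPM, and CD34+ cells from 0 to 286 CPM with a median of 0. The upper quartile was 174 CPM in the former and 24.2 CPM in the latter. Summed levels were 149.7 and 21.5 CPM, 6.95-fold lower (6.26 to 7.73) before 1 CPM was added. With it added, the log2 fold was -2.74 (-2.89 to -2.59), and -1.80 with ERCC scaling. Detection differed less than level, at 22 and 16 of 46 cells (47.8%, 32.9% to 63.1%, and 34.8%, 21.4% to 50.2%), while the median in those cells was 214 CPM and 36.3 CPM (130.2 and 35.007 CPM in all cells with a read, without drawing).

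Jund, the Jun family gene known for steady rather than induced expression, was the most widely found of the AP-1 genes. Its median was 43.7 CPM in CD34- cells (0 to 447 CPM) and 12.3 CPM in CD34+ cells (0 to 160.4 CPM). Cells with a read numbered 39 and 30 of 46, or 84.8% (71.1% to 93.7%) and 65.2% (49.8% to 78.6%). The log2 fold was -1.66 (-1.82 to -1.51), and no cell held more than 13.5% of its reads in a gate. In GENCODE M21, 52.6% of its single exon also lies in the opposite-strand gene Gm11175, so its counts are uncertain without the strand setting.

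Within the Jun family, Jun gave 63.9% of reads in CD34- and 74.2% in CD34+ cells. Junb gave 23.9% and 12.4%, and Jund 12.2% and 13.4%. The shares of Jund thus lay close together while that of Junb was smaller in the CD34+ gate. The median per-cell share of Jun was 31.2% and 18.5%, below its share of summed reads, to which a few rich cells gave much.

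Fos and Fosb were seen in a minority of cells. Fos, whose product is the classic partner of JUN, had a median of 0 in both gates, with highest cells of 1441 CPM (CD34- cell 9) and 858 CPM (CD34+ cell 24). A read was found in 9 of 46 CD34- cells (19.6%, 9.36% to 33.9%) and 12 of 46 CD34+ cells (26.1%, 14.3% to 41.1%). At 10 or more reads the shares were 19.6% and 13.04%, so their order depended on the threshold. The summed level was 93.1 CPM against 38.9 CPM, a log2 fold of -1.24 (-1.37 to -1.11). In cells with a read at fixed depth the median level was 344 and 82.3 CPM. Cell 9 held 36.1% of CD34- Fos reads, and the log2 fold was -0.63 without it.

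Fosb, whose product pairs with JUN proteins as FOS does, was found in 20 and 11 of 46 cells, or 43.5% (28.9% to 58.9%) and 23.9% (12.6% to 38.8%). Its highest cells held 646 and 369 CPM, and its median was 0 in both gates. The summed level was 62.1 CPM against 17.7 CPM, with a log2 fold of -1.75 (-1.93 to -1.57). Fos gave 60.0% of the reads of these 2 genes in CD34- and 68.7% in CD34+ cells, yet more CD34- cells held Fosb.

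Dusp1 resembled Fos in its sparseness. It was found in 9 of 46 CD34- cells (19.6%, 9.36% to 33.9%) and 14 of 46 CD34+ cells (30.4%, 17.7% to 45.8%), with highest cells of 1788 and 753 CPM. At 10 or more reads 15.2% and 8.70% of cells held it, and after drawing 50000 reads 17.4% in both, so the order of the shares depended on the threshold. The summed level was 92.7 CPM against 38.03 CPM, a log2 fold of -1.26 (-1.40 to -1.13). The 3 richest cells held 79.2% of its reads in the CD34- and 84.7% in the CD34+ gate. Without CD34- cell 7 the fold was -0.70, and without CD34+ cell 22 it was -2.19, so its size rests on single cells.

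Egr1 was near the limit of detection. It had 91 reads in the CD34- and 88 reads in the CD34+ gate, or 2.72 and 2.93 CPM, and a log2 fold of 0.08 (-0.37 to 0.53). At fixed depth 3 of 46 cells (6.52%, 1.37% to 17.9%) and 5 of 46 cells (10.9%, 3.62% to 23.6%) held a read. A difference in Egr1 was not detectable at this depth, and its fold changed sign between settings, from -0.31 when 1 CD34+ cell (number 21) was left out to 0.80 with ERCC scaling.

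**Figure D2:**
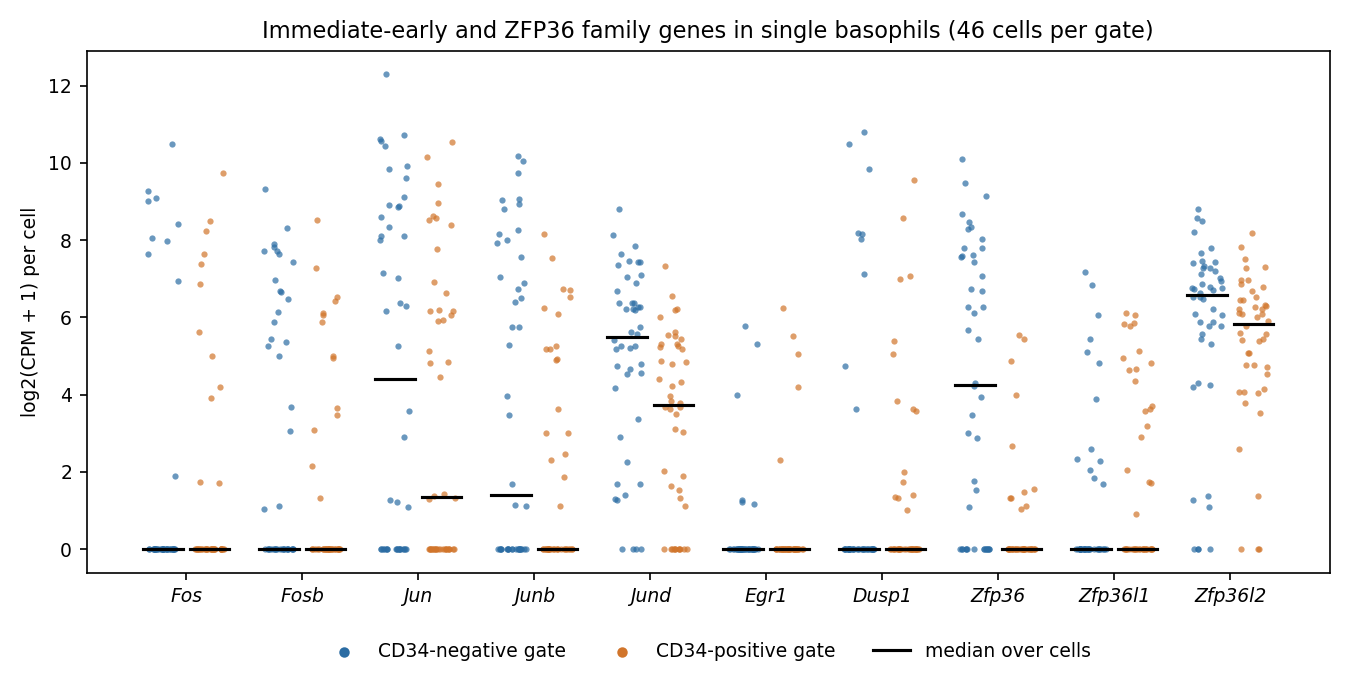
Level of each gene in each kept cell, as log2(CPM + 1), with 46 CD34- (blue) and 46 CD34+ (orange) cells and black bars at the medians. Fos, Fosb, Egr1, Dusp1 and Zfp36l1 have medians of 0 in both gates, and no CD34+ cell exceeds 45.6 CPM of Zfp36.

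**Figure D3:**
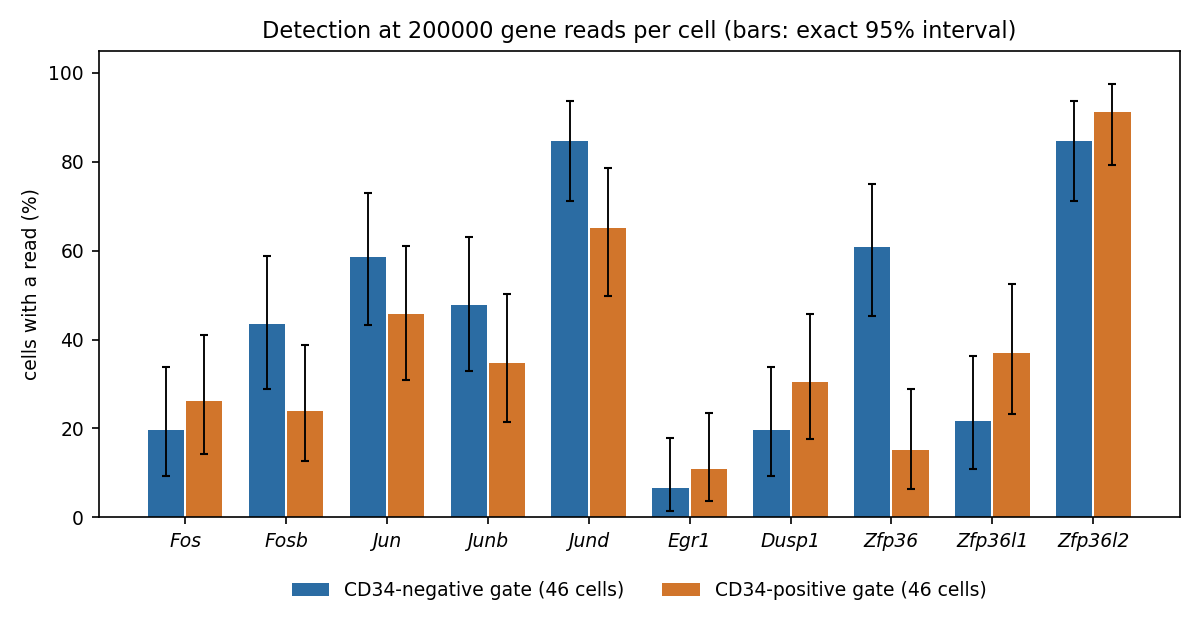
Percent of cells with at least 1 read of each gene after drawing 200000 gene reads per cell, for 46 CD34- (blue) and 46 CD34+ (orange) cells, with exact 95% intervals. Zfp36 was found in 60.9% and 15.2% of cells and Zfp36l2 in 84.8% and 91.3%.

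Levels of different genes were compared per kilobase of merged exons in GENCODE M21. In CD34- cells Jun stood first at 125 CPM per kilobase, followed by Junb (65.1), Jund (45.7), Fos (39.6), Zfp36 (37.1), Zfp36l2 (30.04), Dusp1 (28.004), Fosb (9.95), Zfp36l1 (2.69) and Egr1 (0.607). In CD34+ cells Jun was again first at 40.4 CPM per kilobase, followed by Zfp36l2 (18.6), Fos (16.5), Jund (14.01), Dusp1 (11.5), Junb (9.36), Zfp36l1 (3.93), Fosb (2.84), Zfp36 (0.729) and Egr1 (0.653). Zfp36 thus stood at rank 5 and rank 9, and Junb at rank 2 and rank 6. The places of Jund and Zfp36l1 are uncertain, because 52.6% and 55.9% of their exonic bases also lie in opposite-strand genes. Each of the 10 genes had cells at 0 in both gates, so that neighbours in either order overlap over cells. Single cells also carried much of some sums. CD34- cell 9 held 36.1% of the Fos reads of its gate, and CD34+ cell 22 held 50.1% of the Dusp1 reads of its gate. The ranks were not computed without them.

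The genes lie at separate loci. In mm10, Zfp36 lies on the minus strand of chromosome 7 from 28376784 to 28380253 and has 2 exons. Fosb is on the same chromosome, from 19302696 to 19310051. Jun (chromosome 4, 95049034 to 95052222), Junb (chromosome 8, 84974484 to 84978718) and Jund (chromosome 8, 70698949 to 70700616) are single-exon genes. Fos and Zfp36l1 share chromosome 12, from 85473890 to 85477273 and from 80107754 to 80113013.

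RefSeq promoter windows of 300 bases around the start site (GRCm38.p6, the mm10 assembly) were found for 8 of the 10 genes. Egr1 and Zfp36l2 had none. The RefSeq start sites of Zfp36, Dusp1, Jund, Junb and Fosb differ from the 5′ ends of the GENCODE M21 genes. The Zfp36 and Dusp1 windows thus lie inside the GENCODE spans, and the Jund window before its span. The Junb start site lies before the GENCODE 5′ end and that of Fosb inside its gene, but both windows cover that end. Searched on both strands were TGANTCA, the AP-1 site with any base allowed at its centre, TGACGTCA, the cAMP response element, and the CArG box bound by serum response factor. A CArG box was found only in Zfp36, starting 58 bases before its start site, and 1.63% of all 32851 windows hold one. TGACGTCA was found only in Dusp1, 143 bases before its start site (1.79% of windows), and TGANTCA only in Zfp36l1, 129 bases before its start site (7.81% of windows). The Zfp36l1 match is TGATTCA, whose centre base is not the C or G of the AP-1 consensus. The letters TATAAA, also searched (13.6% of windows), were found 33 bases before the start site in Fos and 29 before it in Zfp36l1. In Junb they lay at the RefSeq start site, and thus before the GENCODE 5′ end. The sites shown do not overlap. These sites are shown with the motif in capitals. The CArG box and TGACGTCA are letters through which kinase signals are known to reach such genes.
Zfp36, in chr7:28379179-28379478, minus strand: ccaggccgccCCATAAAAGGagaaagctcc
Dusp1, in chr17:26508423-26508722, minus strand: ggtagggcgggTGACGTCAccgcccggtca
Zfp36l1, in chr12:80112964-80113263, minus strand: gaccgcatggcTGATTCAacctcagtgtc
No match says only that the letters are not in this window.

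Several genes of the set were then examined together in single cells. Each kept cell held a read of at least 1 of the 10 genes at fixed depth and none held more than 8. The median was 5 genes per CD34- cell and 4 per CD34+ cell, with means of 4.48 ± 2.04 (SD over 46 cells) and 3.80 ± 1.82 (SD over 46 cells). The difference was smaller than the spread between cells. At least 7 genes were found in 9 CD34- and 4 CD34+ cells. With 10 reads required, the medians were 3 and 1. The summed level of the 10 genes had a median of 561 CPM per CD34- cell (24.1 to 7980.05 CPM) and 156 CPM per CD34+ cell (4.56 to 2021 CPM).

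High levels of several genes met in the same few cells, but not in a fixed combination. CD34- cell 7 held the most Jun (5013 CPM), Fosb (646 CPM) and Jund (447 CPM) of all kept cells and the second most Dusp1 of its gate, but no read of Junb. CD34- cell 13 held the most Junb (1164 CPM) with 1579 CPM of Jun, and no Fos. In the CD34+ gate, cell 24 was highest for Fos, Fosb, Junb and Egr1, at 858, 369, 286 and 74.9 CPM. It held no Zfp36 read, while all 5 CD34- cells with the highest summed levels (7, 9, 19, 13 and 14) held 135 to 710 CPM of Zfp36.

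Spearman correlations across the 46 cells of a gate, on log2(CPM + 1) at fixed depth, describe which genes varied together. The labels assign no cell to a mouse, so no p-value is given. Over the 45 pairs the median rho was 0.18 in CD34- and 0.06 in CD34+ cells, and 40 and 28 pairs were above 0. Fosb and Jun gave the highest rho in both gates, at 0.63 (0.64 without cell 10) and 0.75. Of the cells with Fosb, 17 of 20 and 11 of 11 also held Jun, which was found in 27 and 21 of 46 cells at large. Fosb and Jund had a rho of 0.60 in CD34- and -0.02 in CD34+ cells.

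Zfp36 varied with the AP-1 genes in the CD34- gate, and the difference between gates could not be tested. Its rho there was 0.46 with Jund, 0.45 with Junb, 0.41 with Jun, 0.40 with Fosb, 0.29 with Fos and 0.42 with Zfp36l2. In CD34+ cells these were -0.12, 0.06, -0.03, -0.09, -0.25 and -0.03, over 7 cells with a Zfp36 read. Of the CD34- cells with Fos, 7 of 9 also held Zfp36. Of the 12 CD34+ cells with Fos, 0 did. Over all cells Zfp36 was found in 28 of 46 and 7 of 46. Egr1 in CD34+ cells was found in 5 cells, and all 5 held Fosb, Jun and Jund as well.

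**Figure D4:**
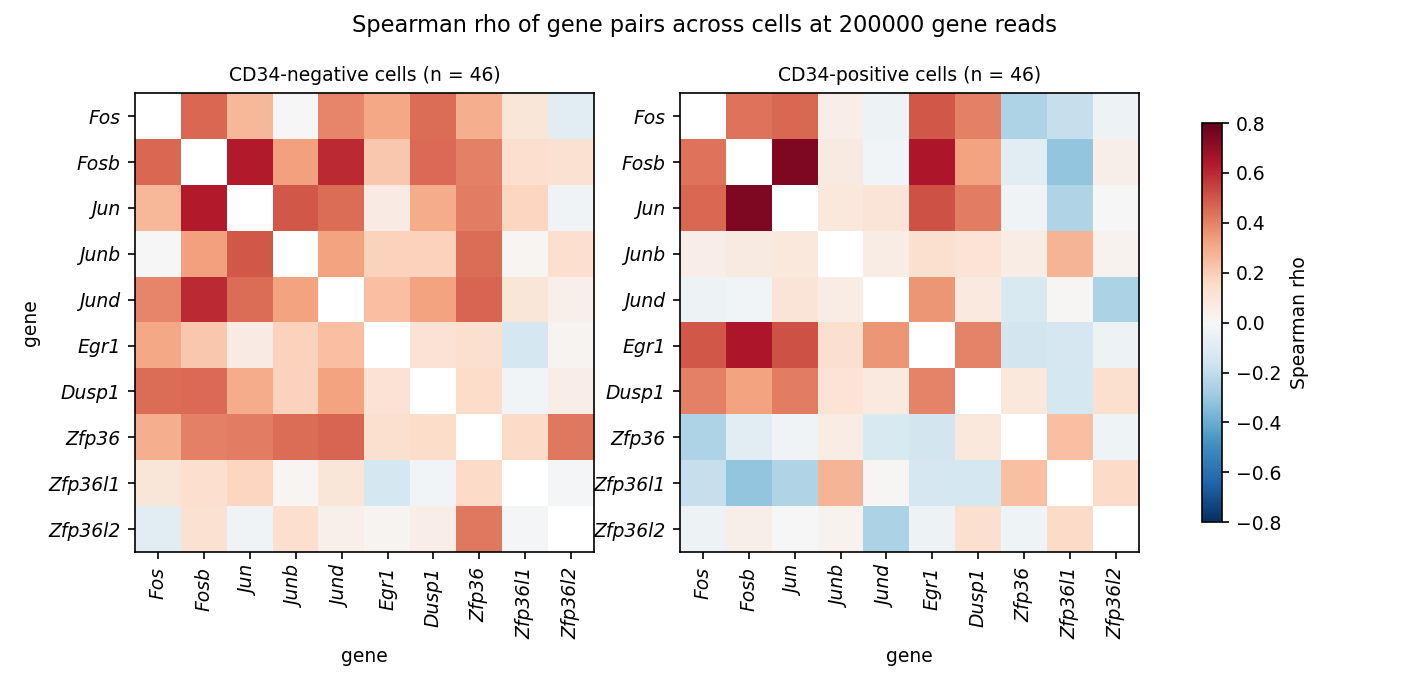
Spearman rho for each pair of the 10 genes across the 46 CD34- cells (left) and the 46 CD34+ cells (right) at 200000 gene reads per cell, with the diagonal left blank. Fosb and Jun are the darkest pair in both panels, at 0.63 and 0.75, and the Zfp36 values run from 0.13 to 0.46 on the left and from -0.25 to 0.24 on the right.

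An index, the mean log2(CPM + 1) of the 10 genes per cell at fixed depth, was set beside library measures. In the CD34- gate its rho was -0.07 with gene reads, -0.04 with the mitochondrial share, 0.08 with the share of ambiguous reads, -0.27 with gene reads per ERCC read and -0.27 with genes found. In the CD34+ gate these 5 values lay between -0.07 and 0.04. The index went with lower granule gene levels in CD34- cells, with a rho of -0.52 for Ctsg, -0.44 for Mcpt8 and -0.40 for Prss34 (-0.52, -0.44 and -0.39 without cell 10). These granule genes were picked after the data were seen. In CD34+ cells they were -0.01, -0.21 and -0.28. Cells lower in those genes thus tended to hold more of the set within the CD34- gate, and the difference between the gates had the same orientation for Mcpt8 and Prss34.

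Of 5447 other genes with a read in at least 15 cells of each gate at fixed depth, the 10 most like the index were Ankrd12, Malat1, Nfkbiz, Arhgap15, Samhd1, Pdcd6ip, Neat1, Gata2, Dennd4c and Arid3a. They are ordered by the lower of the rho values in the gates, which ran from 0.35 (Ankrd12) to 0.29 (Arid3a), so likeness was modest. Malat1 and Neat1, nuclear long noncoding RNAs, had a rho of 0.45 and 0.41 in CD34- and 0.34 and 0.30 in CD34+ cells. Nfkbiz, an inducible regulator of NF-kappaB, had 0.41 and 0.33, with summed levels of 25.7 and 27.1 CPM. Gata2, the transcription factor needed for basophil identity, had 0.30 and 0.32. Only 6 of the 5447 genes had a rho above 0.3 in both gates.

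The genes around the set were described by lists. Of the 30 other immediate-early genes, 19 had reads in at least 10 cells. Of these 12 were at least 2-fold lower and 2 at least 2-fold higher in the CD34+ gate, against 10.1% and 21.7% of all genes, with a median log2 fold of -1.40 that was -0.497 with ERCC scaling and -0.795 at a pseudocount of 10 CPM. Sgk1, a growth factor induced kinase, stood at 92.7 and 13.35 CPM (-2.71), and Trib1, a pseudokinase adaptor, at 57.7 and 13.75 CPM (-1.99). Klf10, a Krüppel-like factor, stood at 133 and 36.5 CPM (-1.84), and Ier5 at 29.5 and 7.63 CPM (-1.82). Without drawing, cells with a read differed little in number. In CD34- and CD34+ cells they were 12 and 11 for Sgk1, 10 and 11 for Trib1, 31 and 29 for Klf10, and 10 and 9 for Ier5. The AP-1 gene Fosl2 had a log2 fold of -1.47. The genes at least 2-fold higher were Myc, at 59.5 and 127 CPM (1.08), and Dusp2, a MAP kinase phosphatase at 0.478 and 6.19 CPM (2.28). Ier3 (0.28) and Ppp1r15a (0.03) lay near 0. Atf3 and Arc had no read in either gate, and Egr2, Egr3 and Fosl1 stood under 0.4 CPM.

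Lists of upstream and partner genes were read against the same 10.1% lower and 21.7% higher over all genes. Of 21 kinase and serum response genes, 2 were at least 2-fold lower (the coactivator Mrtfa, -2.19, and the p38 kinase Mapk14, -1.56) and 1 higher (the JNK gene Mapk8, 1.94), with a median of -0.34. Of 10 other AP-1 dimer partners tested, 2 were lower (Nfil3, -2.27, and Batf, -1.06) and 1 higher (Atf4, 1.24), with a median of -0.36. Of 4 other MAP kinase phosphatases tested, 2 were lower (Dusp16, -1.89, and Dusp6, -1.11) and 0 higher, with a median of -0.69. Dusp2, counted above among the immediate-early genes, was higher. The medians of these 3 lists changed sign with ERCC scaling, to 0.62, 0.59 and 0.25.

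Other decay factors had folds on both sides of 0. Of 23 other genes for AU-rich element binding and mRNA decay, all tested, 3 were at least 2-fold higher and 1 lower, both smaller shares than the 21.7% and 10.1% of all genes, with a median log2 fold of 0.54. Tia1 (1.83) and Hnrnpd (1.13), which encode other binders of AU-rich elements, and the decapping enzyme gene Dcp2 (1.00) were higher, and the deadenylase gene Cnot6l (-1.03) was lower. Among 12 tested mRNAs with AU-rich elements known from ZFP36 studies, 6 were at least 2-fold lower, 1 higher and 5 between, with a median of -0.999 that was -0.17 with ERCC scaling. The lowest were Ccl4 (-3.38), Ccl3 (-2.57), Osm (-2.46) and Pim3 (-1.41). The higher one was Vegfa, found in 1 CD34- and 11 CD34+ cells.

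Heat shock genes, which encode protein-folding chaperones, had a median above 0. Of 12 tested, 4 were at least 2-fold higher in the CD34+ gate (21.7% of all genes were) and 0 lower (10.1% were), with a median log2 fold of 0.61. That median was 1.53 with ERCC scaling, 1.16 without the richest cell of each gene and 0.362 in cells numbered 7 to 42. Hspa5, a chaperone of the endoplasmic reticulum, had the largest fold, at 144.7 and 1135 CPM (2.96), followed by the mitochondrial chaperonin genes Hspe1 (2.16) and Hspd1 (1.92). Hsf1 (-0.24) and Hsph1 (-0.52) lay below 0. Per cell, the index of the set had a rho of 0.11 with the mean heat shock level in CD34- and -0.05 in CD34+ cells, and of 0.33 and 0.19 with that of the other immediate-early genes.

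**Figure D5:**
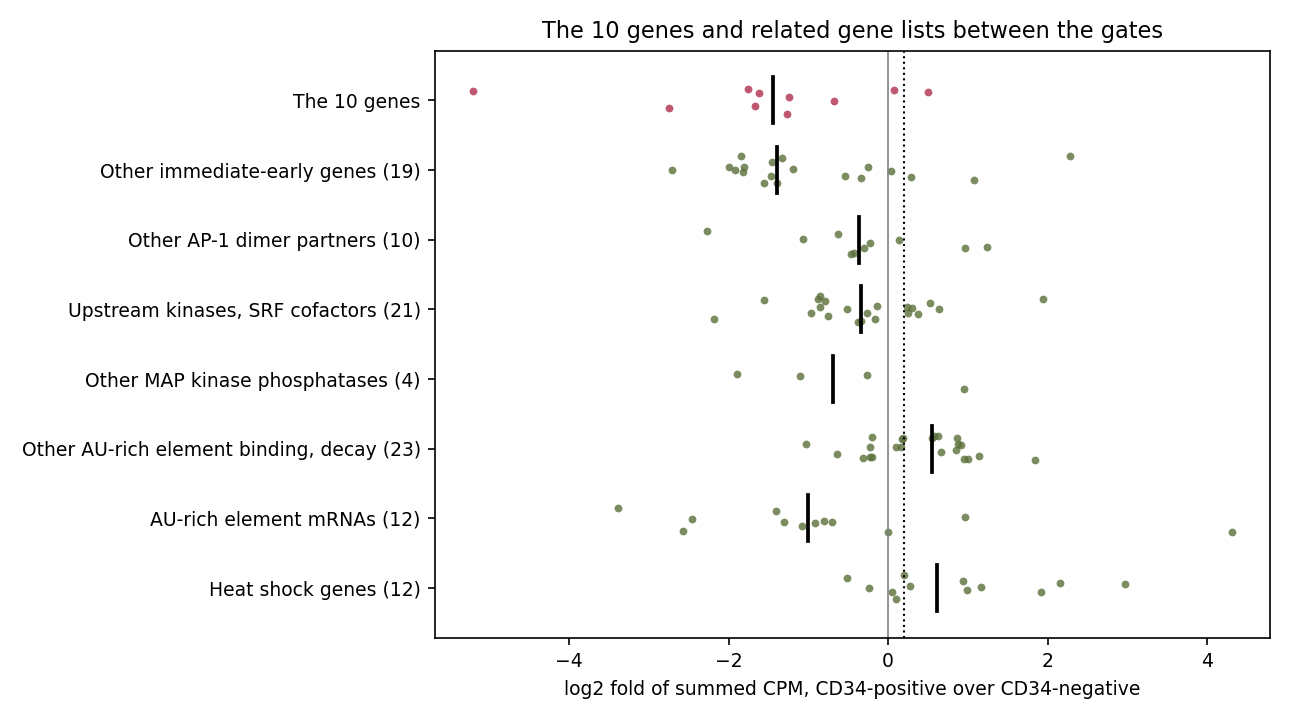
Log2 fold of each gene, CD34+ over CD34-, for the 10 genes (red) and for the tested genes of 7 related lists (green), with black bars at list medians and a dotted line at the median of all genes (0.19). The medians of the 10 genes and of the other immediate-early genes lie at -1.44 and -1.40, and those of the decay and heat shock lists at 0.54 and 0.61.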

How the data were processed

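The authors deposited 1 table of whole read counts per gene and cell, not normalized. Per the submitters' processing notes the tools were GSNAP 2015-09-29 and HTSeq 0.5.3p3 with build mm10. The annotation and the strand setting are not given in the sources used here. Genes took 32.4% of the reads tabulated, ERCC sequences 3.97%, ambiguous reads 7.68%, reads in no feature 33.0% and unaligned reads 22.9%. Only gene reads entered library sizes.

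The cell filter asked for 50000 gene reads, 1000 genes, under 20% mitochondrial and under 50% ERCC reads. Cells were sorted singly and no doublet caller was run. Symbols were matched by identifier (45143 of 46078). Gene reads were summed per gate and scaled to CPM, with a pseudocount of 1 CPM, exact Poisson 95% bounds on sums and exact Clopper-Pearson 95% intervals on shares. With no molecular identifiers, these bounds cover only the counting of reads (sums) or of cells (shares). Intervals of folds set the lower bound of 1 gate against the upper bound of the other, so they are wider than a 95% interval. Detection used 200000 gene reads drawn per cell without replacement. Alternatives used TMM factors (edgeR 4.0.16) and scran 1.30.0 size factors. The fold and drawing steps were checked on simulated data.

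The 10 genes and the lists were chosen with earlier results of these data known. Genes outside the set were named by list (up to 4 per direction with the largest fold, at 10 CPM or more in a gate) or as the 10 most like the index. Fosl2, Atf3, Arc, Egr2, Egr3 and Fosl1, the granule genes, Dusp2, the sequence motifs and the checks of cells 10, 25 and 36 were chosen after the values were seen.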

Additional observations from a re-analysis of the deposited data

Results flagged for a closer look

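Reads of the 10 genes were also present in the 2 cells that were left out for low depth and enter no comparison. CD34- cell 20, with 24565 gene reads, held 38 reads of the set, or 1547 CPM, of which 36 were Jun and 2 Jund. CD34+ cell 3, with 31504 gene reads, held 7 reads of the set, or 222 CPM, of which 5 were Dusp1. Both values exceed the limit of 3 reads that a count of 0 allows, and both lie within the range of the kept cells of their gate.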

How the results depend on the processing

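No paired analysis was possible because title numbers name single cells, and these data gave no test. Where a value moved, the cause was not tested. Of 130 alternative folds of the 10 genes, 68 lay inside the counting interval with the reported sign, 59 outside it with that sign, and 3 had the other sign: Egr1 with TMM factors (-0.074) and with 1 cell left out (-0.31 to 0.69), and Zfp36l2 with ERCC scaling (0.27). Zfp36l2 reached -1.003 and Dusp1 -2.06 with scran size factors. The 7 genes at least 2-fold lower became 2 with ERCC scaling and 2 at 4-fold, and Zfp36l1 was the 1 gene at least 2-fold higher with ERCC scaling, and again the 1 such gene in cells numbered 7 to 42.

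The median fold of the 10 genes was -1.65 with TMM factors, -1.77 with scran size factors, -0.49 with ERCC scaling, -1.57 without the richest cell of each gene, -1.23 at a pseudocount of 10 CPM and -1.71 in cells numbered 7 to 42, and ran from -1.66 to -1.19 with 1 cell left out. With ERCC scaling the list medians were -0.497 (other immediate-early genes), 0.592 (AP-1 partners), 0.617 (kinases), 0.253 (phosphatases), 1.503 (decay factors), -0.167 (AU-rich element mRNAs) and 1.53 (heat shock). With TMM factors the medians of AP-1 partners, kinases, phosphatases and decay factors were -0.570, -0.549, -0.888 and 0.338, and with scran -0.656, -0.502, -0.940 and 0.363. A pseudocount of 10 CPM gave -0.795 for other immediate-early genes, -0.250 for kinases and 0.401 for heat shock genes. Without the richest cell of each gene, kinases stood at -0.129 and heat shock genes at 1.16. In cells numbered 7 to 42, AP-1 partners stood at -0.615 and heat shock genes at 0.362. With 1 cell left out, the ranges were -0.542 to -0.252 (AP-1 partners), -0.460 to -0.152 (kinases), -0.876 to -0.453 (phosphatases), 0.367 to 0.588 (decay factors) and 0.445 to 0.935 (heat shock).

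The median number of genes per CD34+ cell was 1 at 10 reads and 2 at 50000 drawn reads. The share of Zfp36 in its family was 27.6% and 0% in CD34- and CD34+ cells as a median over cells, and 49.2% in CD34- cells without the richest cell. The share of Jun in its family was 31.2% and 18.5% as a median over cells, and 57.2% and 69.2% without the richest cell. At 50000 drawn reads the share of cells with Jund in the CD34- gate was 69.6%, and with Dusp1 and Zfp36l2 in the CD34+ gate 17.4% and 69.6%, so detection of these genes depended on depth.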
